A study of Mus musculus with 6 samples.

Results

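The genes of the adenosine, prostaglandin and cAMP pathway were examined in regulatory T cells (Treg) recovered from the spleen of mice given a bone marrow graft. The members were the rows of the deposited count table whose symbol was Adora2a, Ptger4, P2rx7, Pde3b, Pde4b, Pde4d, Pde7a, Prkar1a, Creb1 or Crem. All 10 were found among 29199 genes, and all 10 were among the 18321 genes that passed the filter on low counts.

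Adenosine, formed outside the cell from ATP, and prostaglandin E2 reach T cells through receptors that couple to Gs and raise cAMP. cAMP releases the catalytic subunits of protein kinase A (PKA) from their regulatory subunits, and PKA phosphorylates CREB, which binds the cAMP response element (CRE) of its target genes. Phosphodiesterases break cAMP down and so limit the signal. Treg are known to hold much cAMP, to carry the ectoenzymes that make adenosine, and to use both in suppression, while extracellular ATP acts on T cells through the ion channel P2RX7.

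Libraries of total RNA came from 3 samples of Treg with WT Tconv (WT1, WT2 and WT3, by replicate number) and 3 of Treg with HP1α KO Tconv (KO1, KO2 and KO3), where Tconv are conventional CD4+ T cells. All Treg were WT cells of B6 Foxp3-Thy1.1 mice, expanded in culture with human IL-2, TGFβ and beads carrying antibodies to CD3 and CD28 (3 days, then 5 to 7 days without beads). They were injected with naive Tconv into lethally irradiated B6 hosts together with B6 and B6D2F1 marrow in equal parts, and were sorted from the spleen 3 weeks after the graft as Thy1.1+ cells of the H-2Kb+H-2Kd- phenotype. The groups differed in the Tconv, taken from WT mice or from mice lacking HP1α, a heterochromatin protein encoded by Cbx5. WT and KO donors of Tconv were littermates of mixed genetic background, the floxed allele had been removed by CMV-cre, which acts in all tissues, and mice of the study were 6 to 12 weeks old. The comparison therefore asks whether pathway transcripts in WT Treg differ with the genotype of the Tconv they were exposed to. The labels do not say whether libraries came from separate mice or from pools, so p-values measure only the spread between these samples.

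The libraries held 87421755 to 119078882 counts. Genes of Treg (Foxp3, Il2ra, Ctla4, Ikzf2 and Tnfrsf18) and of CD4+ T cells at large (Cd4 and Cd3e) were summed. The sum was 4213 to 4992 counts per 1e+06 counts (CPM) in all 6 libraries, and none of the genes was at 0. Ctla4 had 1093 to 1322 CPM with WT Tconv and 806 to 1047 CPM with HP1α KO Tconv, and for the other genes the groups overlapped. In KO2, Foxp3 (158 CPM), Il2ra (124 CPM), Cd3e (151 CPM) and Cd4 (707 CPM) were at their lowest and Tnfrsf18 (594 CPM) at its highest. WT3 stood apart in the summed genes of red cells (6155 CPM, where the other 5 libraries had 393 to 736 CPM), neutrophils (1847 CPM, where they had 42.4 to 229.9 CPM) and macrophages or monocytes (178 CPM, where they had 13.1 to 48.1 CPM). KO2 had 0.972% of its counts in mitochondrial genes, against 2.52 to 2.88% in the others. Plasma cell genes summed to 97.0 to 107 CPM with WT Tconv and to 81.2 to 94.8 CPM with HP1α KO Tconv. Nearly all of this was Prdm1 (80.2 to 102 CPM), which Treg express too, while Jchain had 0.345 to 10.4 CPM in groups that overlapped and Sdc1 and Mzb1 were below 1 CPM. B cell genes had 14.2 to 24.4 CPM, and the lists of dendritic cells, NK cells, CD8 T cells and platelets between 3.19 and 21.5 CPM. No gene of these 9 lists of other cells was at 0 throughout. Their part in the differences below was not tested. In bulk RNA, fewer cells that express a gene and less RNA of it per cell cannot be told apart.

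In Treg with HP1α KO Tconv, 9 of the 10 members had a log2 fold change (log2FC) against the WT group below 0, and P2rx7 had one above 0. The median over the members was -0.32, against -0.01 over all genes tested. With the quasi-likelihood test of edgeR, 0 of the 10 had an adjusted p-value under 0.05, where 0% of all genes tested were called. Under an unadjusted p-value of 0.05, edgeR gave 7 members (1 higher and 6 lower), against 14.5% of all genes (6.98% higher and 7.52% lower), and limma-voom gave 6 (1 higher and 5 lower), against 14.7% (6.96% and 7.71%), and 0 after adjustment. DESeq2, the test used by the study, called 4 members at an adjusted p-value under 0.05, against 4.35% of the 12097 genes for which it gave one. With the further requirement of an absolute log2FC over 1, which the study applied, DESeq2 called 0 members, against 0.132% of all genes (16 of 12097), a share too small for 0 of 10 to set the members apart. The 4 were P2rx7, which was higher (1.31% of genes), and Pde4d, Pde4b and Prkar1a, which were lower (3.03% of genes). The groups did not overlap for 6 members, 1 higher and 5 lower, against 23% of all genes (11.5% higher and 11.6% lower). Calls below are therefore DESeq2 calls that the edgeR test did not share.

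**Figure D1:**
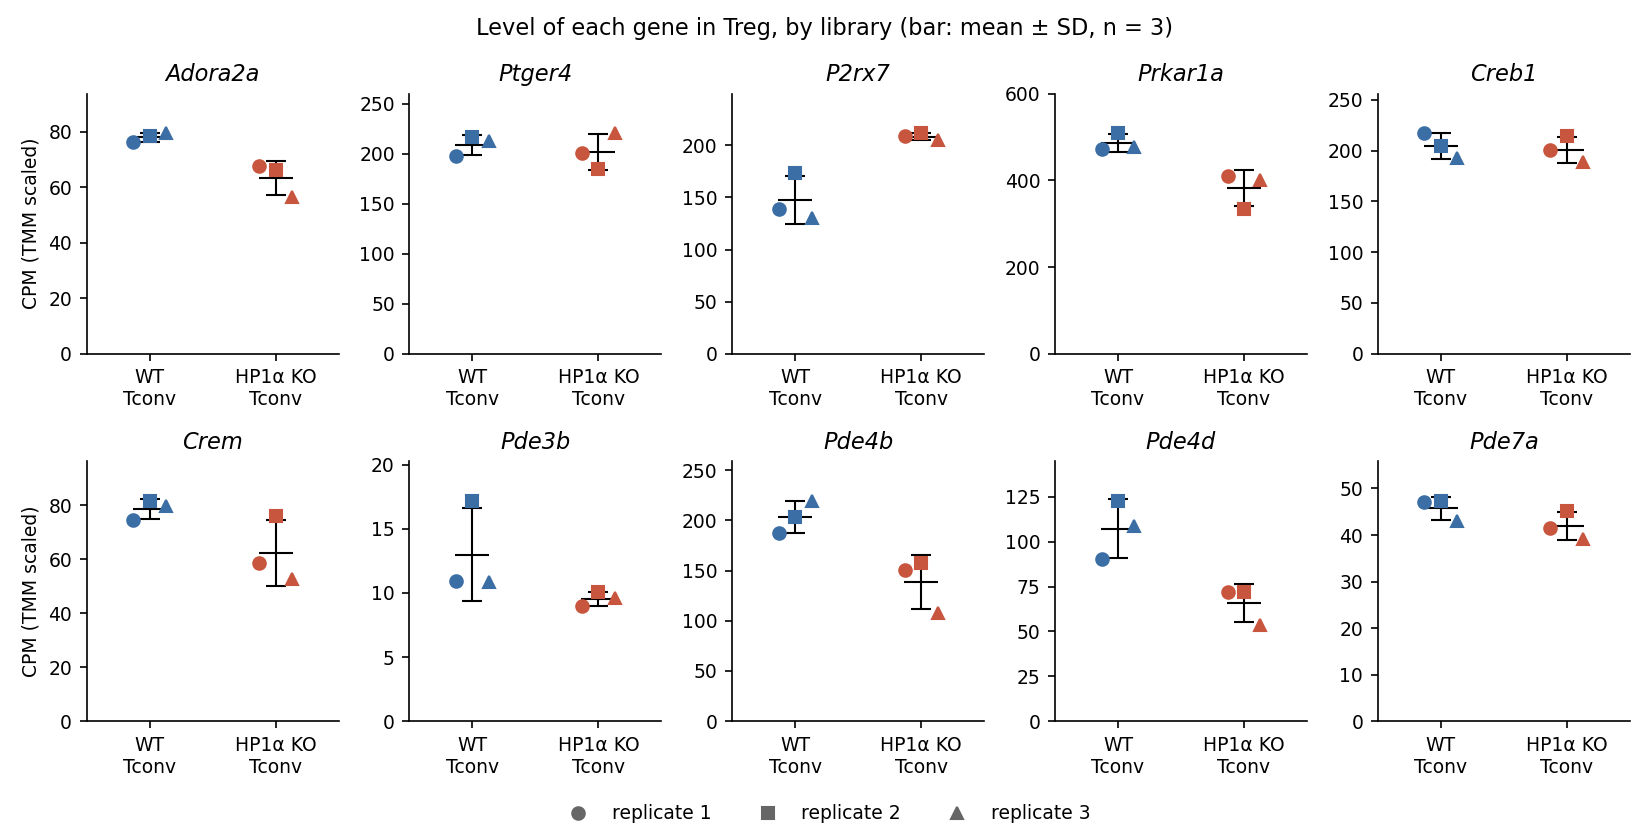
TMM-scaled CPM (y axis, from 0) of each member in WT1 to WT3 (Treg with WT Tconv, blue) and KO1 to KO3 (Treg with HP1α KO Tconv, red). Symbols mark replicates and bars the mean ± SD (n = 3). The groups are apart for Adora2a, P2rx7, Prkar1a, Pde3b, Pde4b and Pde4d and overlap for Ptger4, Creb1, Crem and Pde7a.

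**Figure D2:**
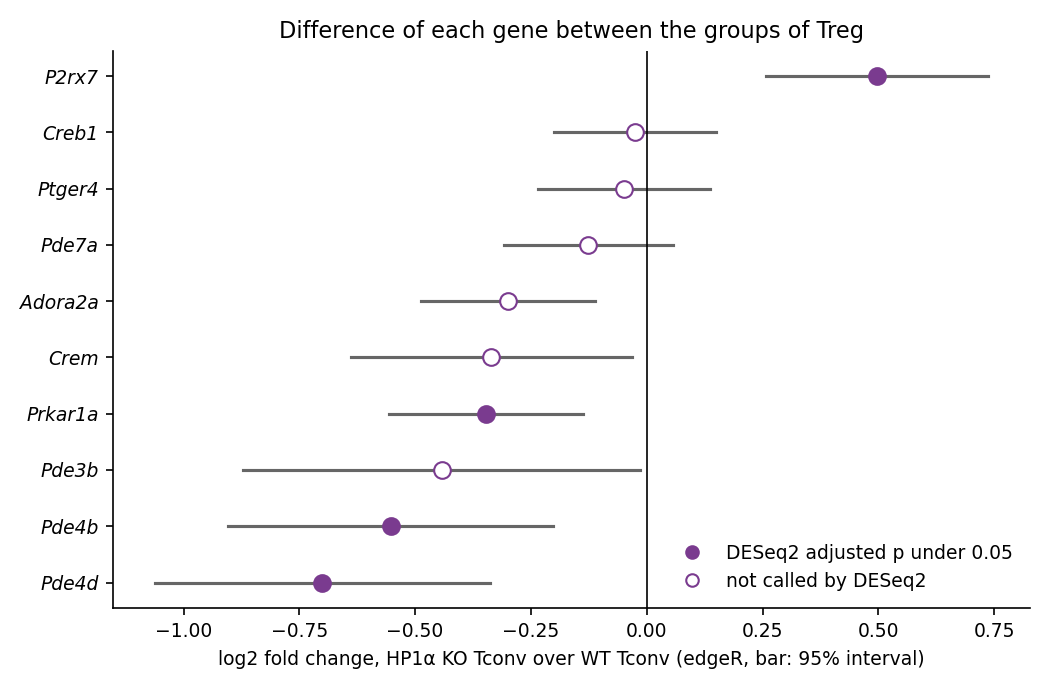
Log2FC of each member, KO group over WT group (x axis), with its 95% interval from edgeR (bars). Filled points are the 4 members called by DESeq2. The estimates run from -0.70 for Pde4d to 0.50 for P2rx7.

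The first members are the receptors. P2rx7 (ENSMUSG00000029468, GRCm39 chr5:122781942-122830400, plus strand) encodes the ATP-gated cation channel whose opening can kill T cells. It had 139, 173 and 131 CPM in WT1, WT2 and WT3 and 209, 212 and 205 CPM in KO1, KO2 and KO3. Each KO library was above each WT library, and the spread lay almost wholly in the WT group (148 CPM ± 22.7 against 208 CPM ± 3.51, SD, n = 3). Its log2FC was 0.50 (standard error 0.104, 95% interval 0.26 to 0.74). The adjusted p-value of P2rx7 was 0.00256 in DESeq2 and 0.209 in edgeR, where it ranged from 0.0547 (no filter beyond 1 count) to 0.437 over 15 alternatives with edgeR or limma-voom. When each library was left out in turn, DESeq2 called it in 5 of 6 fits, and without WT1 its adjusted p-value was 0.0574. Without WT3, the library rich in red cell and neutrophil RNA, the log2FC was 0.42 in edgeR and the DESeq2 adjusted p-value 0.0472.

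P2rx7 was the sole member with a higher mean in Treg with HP1α KO Tconv, and the stretch upstream of its annotated start is shown for that reason (RefSeq promoter table of GRCm38.p6, placed in GRCm39 by exact match at chr5:122781740-122781941, plus strand). It holds neither TGACGTCA, the full CRE, nor TGACG, a shorter form of it, on either strand, which says only that these letters are not in the stretch.
P2rx7 upstream: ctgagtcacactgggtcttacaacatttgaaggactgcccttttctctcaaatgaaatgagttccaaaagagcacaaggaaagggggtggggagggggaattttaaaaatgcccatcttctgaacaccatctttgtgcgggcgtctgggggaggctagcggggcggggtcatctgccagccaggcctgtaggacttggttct

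Adora2a (ENSMUSG00000020178, chr10:75152560-75170628, plus strand) encodes the main adenosine receptor of T cells, which couples to Gs. It had 76.3, 78.3 and 79.4 CPM with WT Tconv and 67.6, 66.2 and 56.4 CPM with HP1α KO Tconv. All KO libraries were below the WT libraries, and KO3 was the lowest. The log2FC was -0.30 (standard error 0.0819, 95% interval -0.49 to -0.11), with an adjusted p-value of 0.215 in edgeR and 0.0649 in DESeq2, so that it passed neither. DESeq2 called it when KO1 (adjusted p = 0.0416) or KO2 (adjusted p = 0.0121) was left out.

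Ptger4 (ENSMUSG00000039942, chr15:5236142-5273673, minus strand) encodes EP4, a Gs-coupled receptor of prostaglandin E2. Its levels were 198, 217 and 213 CPM with WT Tconv and 201, 185 and 221 CPM with HP1α KO Tconv, and both the lowest and the highest library were in the KO group. The log2FC of -0.05 had a 95% interval of -0.24 to 0.14 and an edgeR adjusted p-value of 0.809, and it turned to 0.012 without KO2. The exons of Ptger4 share 15.3% of their bases with a pseudogene on the opposite strand, Gm15937, which had 306 counts in all, against 121162 for Ptger4.

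The phosphodiesterases held the members with the lowest log2FC. Pde4d (ENSMUSG00000021699, chr13:108586482-110092497, plus strand) and Pde4b (ENSMUSG00000028525, chr4:101944740-102465716, plus strand) encode cAMP-specific enzymes of the PDE4 family. Pde4d had 90.2, 123 and 109 CPM with WT Tconv and 72.2, 71.9 and 53.9 CPM with HP1α KO Tconv. The highest KO library lay below the lowest WT library, and KO3 was the lowest of all. This is a log2FC of -0.70 (standard error 0.153, 95% interval -1.06 to -0.34), or a level lower by 38.4%. The adjusted p-value of Pde4d was 0.000443 in DESeq2 and 0.209 in edgeR, with 0.184 to 0.437 over the edgeR and limma-voom alternatives. DESeq2 called it whichever library was left out, with adjusted p-values of at most 0.0365, and in the same 6 splits the edgeR log2FC lay between -0.80 and -0.57.

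Pde4b had 188, 203 and 220 CPM with WT Tconv and 151, 158 and 107 CPM with HP1α KO Tconv. Here too the groups were apart, with WT3 the highest and KO3 the lowest library. The level was lower by 31.8%, a log2FC of -0.55 (standard error 0.148, 95% interval -0.90 to -0.20), with an adjusted p-value of 0.00768 in DESeq2 and 0.22 in edgeR. The DESeq2 call was lost without WT2 (adjusted p = 0.0849) or WT3 (adjusted p = 0.107). Without KO3 the edgeR log2FC was -0.40.

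Pde3b (ENSMUSG00000030671, chr7:114013685-114138486, plus strand) encodes a phosphodiesterase inhibited by cGMP, and Pde7a (ENSMUSG00000069094, chr3:19277270-19365890, minus strand) one with high affinity for cAMP. Pde3b had 10.9, 17.2 and 10.8 CPM with WT Tconv and 9.01, 10.1 and 9.58 CPM with HP1α KO Tconv, from 819 to 1661 counts per library. The groups did not overlap, but WT1 and WT3 were close to the KO libraries and WT2 was well above all others. The log2FC of -0.44 (95% interval -0.87 to -0.01, adjusted p = 0.331 in edgeR and 0.14 in DESeq2) was -0.18 without that library. Pde7a had 47.0, 47.4 and 43.0 CPM against 41.6, 45.1 and 39.2 CPM, which overlapped, and its log2FC was -0.13 (edgeR adjusted p = 0.51), -0.079 without KO3 and -0.18 without KO2.

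Prkar1a (ENSMUSG00000020612, chr11:109513434-109560633, plus strand) encodes the type I alpha regulatory subunit of PKA, which holds the kinase inactive until cAMP binds. It had 472, 509 and 477 CPM with WT Tconv and 411, 335 and 401 CPM with HP1α KO Tconv. All 3 KO libraries were below the WT libraries, and KO2, the one with little mitochondrial RNA, was the lowest. Its log2FC was -0.35 (standard error 0.091, 95% interval -0.56 to -0.14), with an adjusted p-value of 0.0256 in DESeq2 and 0.209 in edgeR. The DESeq2 call was lost without WT1 (adjusted p = 0.0888), WT2 (0.145) or WT3 (0.0949). Without KO2 the edgeR log2FC was -0.26 and the DESeq2 adjusted p-value 0.000841.

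Creb1 (ENSMUSG00000025958, chr1:64571731-64643707, plus strand) encodes CREB itself, and Crem (ENSMUSG00000063889, chr18:3260980-3337748, minus strand) the related factor CREM, whose short isoform ICER represses genes with a CRE. Creb1 had 217, 204 and 192 CPM with WT Tconv and 200.2, 214 and 189 CPM with HP1α KO Tconv. The groups overlapped, and the log2FC of -0.03 (95% interval -0.20 to 0.15, edgeR adjusted p = 0.902) turned to 0.012 when libraries were scaled by their totals alone. Crem had 74.6, 81.6 and 79.6 CPM against 58.5, 75.8 and 52.5 CPM. KO1 and KO3 were below all WT libraries and KO2 was among them. The log2FC of Crem was -0.34 (standard error 0.13, 95% interval -0.64 to -0.03), with an adjusted p-value of 0.304 in edgeR and 0.129 in DESeq2, and DESeq2 called it (2.17e-06) when KO2 was left out. Gene-level counts do not separate the isoforms of Crem, and 6.99% of its exonic bases lie opposite Gm6225, which had 9205 counts in all against 41890 for Crem.

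**Figure D3:**
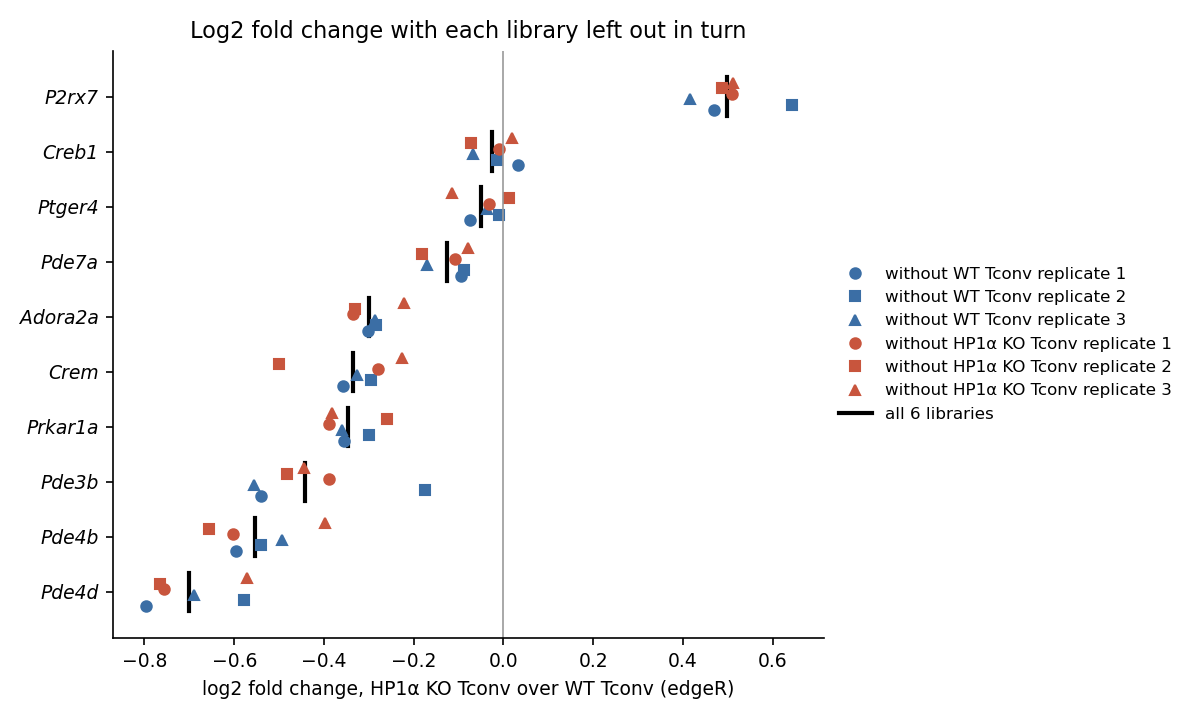
Log2FC of each member in edgeR (x axis) with all 6 libraries (black line) and with each library left out (symbols, blue for WT Tconv and red for HP1α KO Tconv). Creb1 and Ptger4 lie on both sides of 0, and Pde3b moves from -0.44 to -0.18 without WT2.

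CRE letters were looked for in the 250 bases before each RefSeq start, on both strands, because the promoters of some cAMP pathway genes are known to hold them. Promoter windows were found for Ptger4, P2rx7, Pde4b, Pde4d, Prkar1a and Creb1 (15 windows), and not for Adora2a, Pde3b, Pde7a and Crem. TGACGTCA was in 1.55% of the 32851 windows of all genes and TGACG, which the full element contains, in 17.8%. Prkar1a had the full element once and the short form at other places in its windows, and Pde4b had the short form. The windows of Ptger4, P2rx7, Pde4d and Creb1 held neither. The only Pde4d window belongs to a start at -462464 bases from that of the canonical transcript. The Pde4b window with the match belongs to one at -148540 bases, so neither describes the main start of its gene. The full element of Prkar1a is in the window of a start 337 bases downstream of the canonical one, and lies downstream of the canonical start. Its short forms are in that window and in those of starts at 250 and -1249 bases. The Prkar1a window nearest the canonical start, at -70 bases, held neither form. The matches are shown as the plus strand of GRCm39 with the motif in capitals (CGTCA is TGACG on the minus strand), at chr11:109541715-109541744, chr11:109541576-109541605, chr11:109540026-109540055 and chr4:102278706-102278735 in that order. All but the third lie in an annotated exon of the gene, and a match is a description of the letters, not of a site in use.
Prkar1a full element: gcgaggcgcatTGACGTCAgcagccgaacg
Prkar1a short form in an exon: gttctagctagaTGACGacgggctaagggt
Prkar1a short form outside exons: tttgcttttattCGTCAgtgttaatacagt
Pde4b short form: gatttggctgcaCGTCAattttctcatctg

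To set the members beside each other, levels were divided by the length of all exons of the gene. Prkar1a was the highest, at 49.9 CPM per kb ± 2.08 (SD, n = 3) with WT Tconv, and Ptger4 followed at 31.5 CPM per kb. Pde4b (17.2 CPM per kb), P2rx7 (15.1), Adora2a (14.8) and Creb1 (14.5) came next, and each overlapped its neighbour in that order. Pde4d (7.39) and Crem (6.97) overlapped each other, while Pde7a (4.53) and Pde3b (1.01) were apart from their neighbours. With HP1α KO Tconv, P2rx7 came directly after Ptger4, at 21.3 CPM per kb, and did not overlap Creb1 (14.3), while Adora2a (12.1) and Pde4b (11.7) overlapped each other below it. Pde4d, at 4.55 CPM per kb, overlapped both Crem (5.52) and Pde7a (4.15), and Pde3b was again the lowest at 0.745. Dividing by the longest transcript kept the WT order, but in the KO group it put Pde4b above Creb1 and Adora2a, and Pde4d above Crem.

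**Figure D4:**
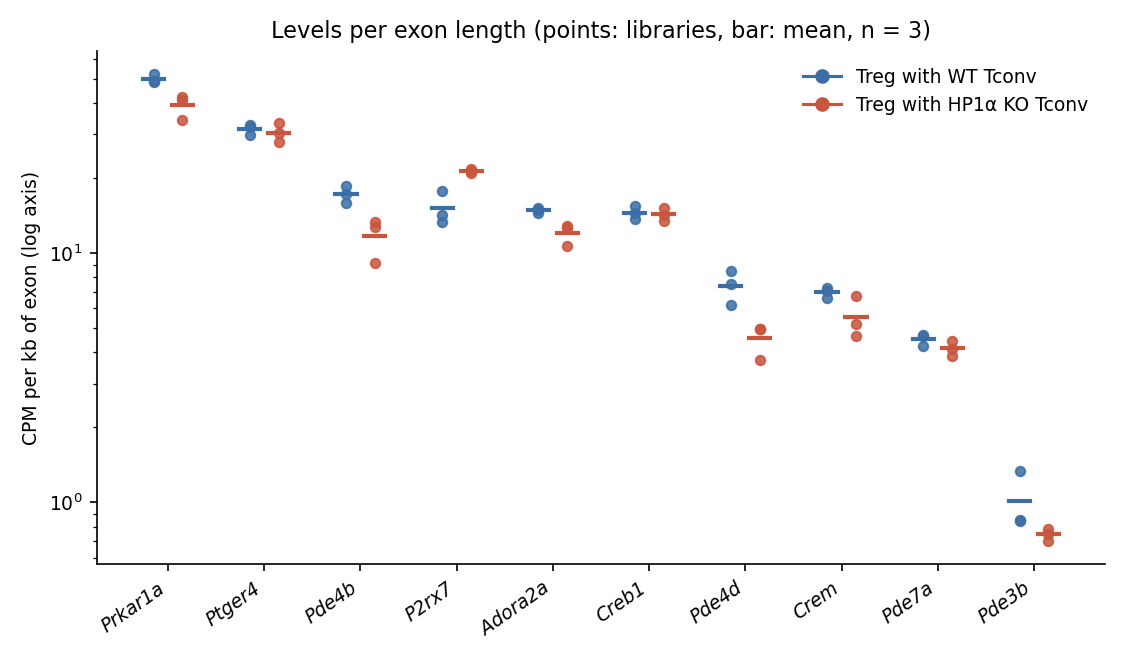
CPM per kb of exon (y axis, log scale) of each member, in order of its mean in Treg with WT Tconv. Points are libraries and bars are means (n = 3). P2rx7 moves from 15.1 to 21.3 CPM per kb between the groups and Pde4d from 7.39 to 4.55 CPM per kb.

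Across the 6 libraries, Adora2a, Pde4b and Pde4d varied together, as a description without a test. Pearson's r of log2 CPM was 0.99 for Adora2a with Pde4b, 0.96 for Adora2a with Pde4d and 0.95 for Pde4b with Pde4d, and Crem followed Pde4b at 0.91. P2rx7 had a negative r with each of the other 9 members, from -0.77 with Adora2a to -0.06 with Creb1. These values span both groups, so the difference between groups is part of them. KO3 was the lowest library for 6 members, and WT2 the highest for 5. The gene most like Pde4b among 13254 genes was Nfil3 (r = 0.998), the one most like Adora2a with an assigned name was Fosl2 (0.997), and the one most like P2rx7 was Itga4 (0.998). Of the 13254 genes, 587 exceeded an r of 0.9 with Pde4b, and over only 6 libraries such values are common.

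The rest of the pathway was described from a list of 125 other genes in 14 roles, of which 122 were in the table and 107 were tested. Their median log2FC was -0.08, with 42 genes higher and 65 lower. In edgeR, 0 of the 107 had an adjusted p-value under 0.05 and 21 an unadjusted one under 0.05 (19.6%, against 14.5% of all genes, 8 higher and 13 lower), and limma-voom gave 0 and 22. DESeq2 called 9 (Tbxa2r higher, and Ptges3, P2ry10, Rap1b, Atf1, Crtc2, Nr4a3, Per1 and Sik1 lower), against 4.35% of the 12097 genes for which it gave an adjusted p-value. It gave none for some of the 107, Adora2b, Adcy6, Prkar2b and Adrb1 among them, so 9 of 107 understates the share called. The groups did not overlap for 31 (29%, against 23% of all genes). Of the 9 DESeq2 calls, those of Nr4a3 and Ptges3 were kept in each fit without a library, and the count was 3 without WT3 or without KO3 and 17 without KO2. Without WT3, P2ry10 was the other call kept (adjusted p = 0.0437). The DESeq2 adjusted p-values where the remaining calls were lost are given with each gene.

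The ligand side came first. Of 11 genes of adenosine and ATP handling, 0 had an unadjusted p-value under 0.05 in edgeR, against 14.5% of all genes. DESeq2 called 0, against 4.35% of the genes for which it gave an adjusted p-value. At these shares, 0 of 11 does not set the role apart. Nt5e, which encodes CD73, the enzyme that forms adenosine from AMP, was at 418 CPM ± 15.9 and 379 CPM ± 65.3 (SD, n = 3) in the WT and KO groups (log2FC -0.14, 95% interval -0.42 to 0.14, and -0.0058 without KO3 or -0.23 without KO1), and Entpd1, which encodes CD39, had one of 0.13, or of 0.23 without WT2. Of the other adenosine receptors, Adora2b was at 0.271 CPM ± 0.221 and 0.155 CPM ± 0.0497 (SD, n = 3), from 133 counts in all 6 libraries, and its log2FC of -0.80 became 0.10 without WT3. Ptger2, which encodes EP2, the other Gs-coupled receptor of prostaglandin E2, was at 89.5 CPM ± 0.61 and 74.6 CPM ± 13.1 (SD, n = 3), apart but with an edgeR unadjusted p-value of 0.055. The log2FC of Ptger2 was -0.26, and -0.15 without KO3 or -0.39 without KO1, when DESeq2 called it (adjusted p = 0.00422). Of its exonic bases, 9.8% lie opposite Gm17173, which had 11156 counts in all against 48545 for Ptger2, and 6.37% opposite Gm49364 (952 counts). Tbxa2r, the thromboxane receptor, was at 6.78 CPM ± 0.461 and 9.44 CPM ± 1.04 (SD, n = 3), with a log2FC of 0.48 (DESeq2 adjusted p = 0.0335), a call lost without WT1, WT3, KO1 or KO3 (0.103 to 0.138). Ptges3, which encodes the HSP90 co-chaperone p23, also described as a prostaglandin E synthase, had a log2FC of -0.41 (DESeq2 adjusted p = 0.00449), and shares sequence with pseudogenes. P2ry10, a receptor related to the P2Y family, was at 388 CPM ± 23.6 and 309 CPM ± 23.4 (SD, n = 3). Its log2FC was -0.33 (DESeq2 adjusted p = 0.0263), a call lost without WT1, WT2, KO1 or KO3 (0.0844 to 0.128). P2ry10 shares 443 aligned bases with P2ry10b. Adrb1, the beta 1 adrenergic receptor, had a log2FC of -0.91 at 0.902 and 0.481 CPM (edgeR adjusted p = 0.262).

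Inside the cell, 2 of 7 tested adenylyl cyclases, the enzymes that form cAMP, had an unadjusted p-value under 0.05 in edgeR, against 14.5% of all genes. They were Adcy7 (log2FC 0.28, edgeR adjusted p = 0.237) and Adcy3 (0.21, 0.285), and neither was called by DESeq2 with all 6 libraries. DESeq2 called Adcy7 without WT2 (adjusted p = 0.00993) or KO2 (0.015), and Adcy3 without KO2 (0.0352). Both share exonic bases with a gene on the opposite strand (13% with Brd7 and 19% with Cenpo). Adcy6 had the lowest log2FC of that role, -2.28 (edgeR adjusted p = 0.498), with 23.3 CPM in WT3 and 1.21 to 2.42 CPM in the other libraries, and the log2FC was 0.0026 without WT3. Of 9 other phosphodiesterases tested, Pde11a alone had an unadjusted p-value under 0.05 in edgeR (11.1%, close to the 14.5% of all genes). Pde11a was at 3.78 CPM ± 0.29 and 5.32 CPM ± 0.594 (SD, n = 3), with a log2FC of 0.49 (DESeq2 adjusted p = 0.0693). Without KO2, DESeq2 called it (adjusted p = 0.00722). Pde4a, also of the PDE4 family, had a log2FC of -0.16 at a mean of 2.42 CPM. That log2FC was -0.32 to -0.063 when single libraries were left out (-0.26 without WT3). Pde4c, of the same family, went the other way, with a log2FC of 0.24 at a mean of 1.51 CPM (0.14 to 0.38 without single libraries). Of these 9 phosphodiesterases, 6 were higher and 3 lower. Among 7 other PKA subunits and inhibitors, 2 were higher and 5 lower, and 0 had an unadjusted p-value under 0.05 in edgeR, against 14.5% of all genes. DESeq2 called 0, against 4.35% of the genes for which it gave an adjusted p-value, and it gave none for Prkar1b, Prkar2b and Pkib. At these shares, 0 of 7 does not set the role apart. Prkar2b, a type II regulatory subunit, and Pkig, a PKA inhibitor, were high in WT3 alone (27.2 and 6.23 CPM, against at most 2.65 and 1.58 CPM elsewhere), with a log2FC of -2.13 and -1.23 that was 0.015 and 0.059 without it. Of the exonic bases of Pkig, 14.9% lie opposite Ada, which had 4494 counts in all against 1297 for Pkig. Prkacb, the catalytic subunit with the highest level per kb of that role, had a log2FC of 0.08, which was -0.013 without KO3. Rap1b, a small GTPase downstream of the cAMP sensor Epac, was at 564 CPM ± 26.9 and 445 CPM ± 36.7 (SD, n = 3), with a log2FC of -0.34 (DESeq2 adjusted p = 0.0174), a call lost without WT2, WT3 or KO3 (0.101, 0.0751 and 0.0505). Its relative Rap1a (-0.21), the Epac gene Rapgef4 (0.48, at 1.87 and 2.62 CPM), the G protein subunit Gnb2 (0.20) and the anchoring protein Akap8l (0.22) had an unadjusted p-value under 0.05 in edgeR. None of them was called by DESeq2 with all 6 libraries. Rapgef3, the other Epac gene listed, went the other way, with a log2FC of -0.65 (edgeR unadjusted p = 0.0571). It was at 0.51 to 0.87 CPM with WT Tconv and 0.42 to 0.46 CPM with HP1α KO Tconv. Its log2FC was -0.80 to -0.42 without single libraries. DESeq2 called Akap8l without KO1 (adjusted p = 0.0421) or KO2 (0.0331). The genes of highest level per kb in the roles not yet named, Gpr65 (log2FC -0.15), Gnai2 (0.13), Pde2a (0.10), Akap13 (-0.15) and Crebzf (-0.19), had edgeR adjusted p-values of 0.368 or more. Single libraries moved several of them: without KO2 the log2FC of Akap13 was -0.041 and that of Pde2a 0.25, and without KO3 those of Gpr65, Crebzf and Pde2a were -0.099, -0.11 and 0.0025. DESeq2 called Crebzf without KO2 (adjusted p = 0.036). Pde2a shares 52.6% of its exonic bases with Gm45837 on the same strand, which had 7062 counts in all against 67291 for Pde2a.

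At the end of the pathway, 7 of 10 tested genes known to be induced by CREB had an unadjusted p-value under 0.05 in edgeR, 1 higher and 6 lower, against 6.98% and 7.52% of all genes, and DESeq2 called 3, all lower (3.03% of all genes). Nr4a3, an orphan nuclear receptor induced by T cell receptor signals as well as by cAMP, had 119, 116 and 143 CPM with WT Tconv and 82.7, 74.2 and 54.1 CPM with HP1α KO Tconv. The groups were apart, and the log2FC of -0.84 (standard error 0.168, 95% interval -1.24 to -0.44) had an adjusted p-value of 3.18e-05 in DESeq2 and 0.209 in edgeR. Sik1, a kinase that inhibits the CREB coactivators, was at 303 CPM ± 39.6 and 214 CPM ± 31.6 (SD, n = 3), and Per1, a clock gene, at 394 CPM ± 44.2 and 312 CPM ± 22.8 (SD, n = 3). Both were called by DESeq2 (0.0115 and 0.0468), but not without WT2 (0.0872 and 0.221), WT3 (0.137 and 0.195) or KO3 (0.0766 and 0.178). Fos went the other way, with 385, 394 and 402 CPM against 418, 476 and 560.1 CPM, with a log2FC of 0.30 (DESeq2 adjusted p = 0.106), which was 0.18 without KO3, and DESeq2 called it without KO1 (0.00889). Of 9 other tested genes of the CREB family and coactivators, 3 were higher and 6 lower, and DESeq2 called 2, both lower (3.03% of all genes). They were the coactivator Crtc2 (log2FC -0.33, DESeq2 adjusted p = 0.0316) and the CREB relative Atf1 (-0.32, 0.0265), which shares sequence with a pseudogene. The coactivators Crebbp (-0.18, 0.559) and Ep300 (-0.15, 0.669) were not called. Crebbp was at 130 CPM in KO2 and 196 to 204 CPM in WT1 to WT3 and KO1, and Ep300 at 82.1 CPM in KO2 and 132 to 133 CPM in those 4 libraries, with KO3 the highest for both. Without KO2 their log2FC turned to 0.0095 and 0.062. The call of Atf1 was lost without WT1 (0.0763) or WT3 (0.0982), and that of Crtc2 without WT1 (0.114), WT2 (0.082), WT3 (0.0618) or KO3 (0.0501). All of these genes also answer to signals other than cAMP, and no level of cAMP or of phosphorylated CREB was analysed here.

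**Figure D5:**
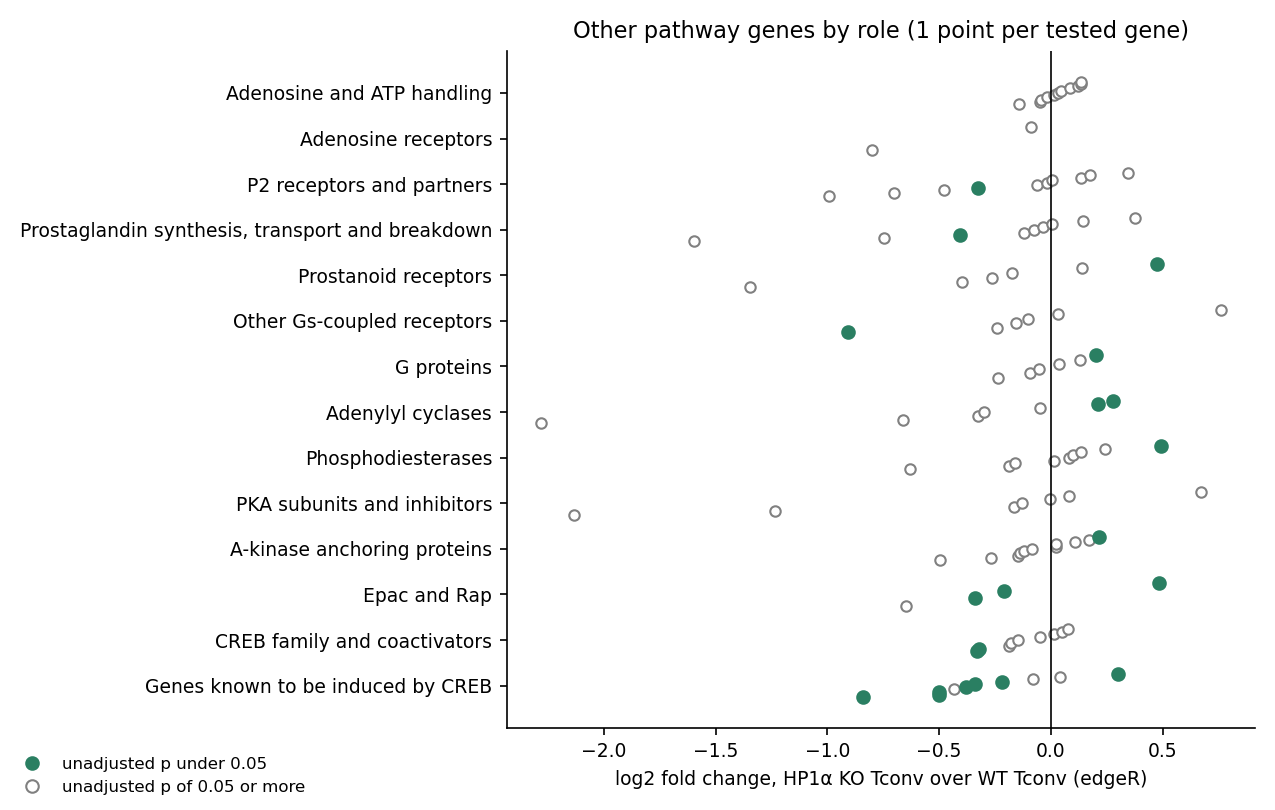
Log2FC (x axis, edgeR) of the 107 other pathway genes tested, by role (y axis). Filled points have an unadjusted p-value under 0.05, which 14.5% of all genes tested had. In the row of genes induced by CREB, 6 filled points lie below 0 and 1 above, and the row of adenosine and ATP handling has no filled point.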

How the data were processed

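The deposited values were estimated counts per gene, whole numbers that were not normalized. The authors trimmed 150-base reads with Cutadapt (version 3.4) and Trim Galore (version 0.6.7), aligned them with STAR (version 2.7.10a) to GRCm39 with an Ensembl annotation, and estimated counts with Salmon (version 1.5.2) in nf-core/rnaseq (version 3.9). The kit marks strand, but the strand setting of the counting was not given in the sources used here, so reads of overlapping opposite genes may be mixed. All 6 per-sample columns were matched to the labels and 0 were left unused.

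Genes were tested with edgeR (version 4.0.16, TMM, filterByExpr, glmQLFit with robust estimation, glmQLFTest) in R (version 4.3.3) on group alone, with Benjamini-Hochberg adjustment over 18321 genes, a threshold of 0.05 and 95% intervals. DESeq2 (version 1.42.0) gave no adjusted p-value for genes under its own filter. CPM is the count over the TMM-scaled total times 1e+06 (marker sums and mitochondrial shares unscaled), and standard errors of log2FC are its size divided by the root of the F statistic. Exon lengths and overlaps came from GENCODE M39, which matched 28854 of 29199 identifiers, and shared sequence from BLAST (version 2.17.0, at least 95% identity over 200 bases). Likeness was Pearson's r over genes averaging 100 counts or more. Pairs of replicates differed by more than sampling noise (chi-square per degree of freedom 21.3 to 174), so each library counted once. The fits were tested on simulated data, where DESeq2 called more of the unchanged genes than edgeR did, with no change simulated as well as with small or large changes. The simulated counts took their dispersions from edgeR, the same in both groups, and no library was set apart as WT3 and KO2 were. They therefore do not decide between the 2 tests for these data.

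The members, the pathway list, the marker lists and the tests were chosen with earlier results of these data known. Named pathway genes were up to 3 per role with the smallest unadjusted p-value under 0.05 and the gene of highest count per kb in each role. Entpd1, Pde4a, Pde4c, Adcy6, Prkar2b, Pkig, Rapgef3, Crebbp and Ep300 were singled out after their values had been seen. Alternatives were DESeq2, limma-voom (version 3.58.1), the newer quasi-likelihood method, no robust estimation, 3 other scalings, 2 other filters, the replicate number as a block, another exon length, and each library left out in edgeR and DESeq2.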

Additional observations from a re-analysis of the deposited data

How the results depend on the processing

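The count of members called was 0 in edgeR and 0 in each edgeR and limma-voom alternative, 4 in DESeq2, and 2, 2, 2, 5, 6 and 4 in DESeq2 without WT1, WT2, WT3, KO1, KO2 and KO3. The count over the other pathway genes was 0 in edgeR, 9 in DESeq2 and, in the same order, 5, 5, 3, 10, 17 and 3. Over all genes it was 0 in edgeR (0 to 2 without single libraries, 1 with upper quartile scaling and 38 with no filter beyond 1 count), 526 in DESeq2 and, in that order, 328, 279, 181, 681, 1413 and 332. Same-numbered libraries do not all deviate together (correlations of -0.042, 0.18 and 0.12, and WT1 was most like KO2), so the numbers were not taken to pair the samples. With the replicate block the count was 1 over all genes and 0 over the members.

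Some differences changed sign. The log2FC of Creb1 was 0.012 with total counts, 0.033 (DESeq2 0.018) without WT1 and 0.019 (DESeq2 0.021) without KO3, and -0.073 to 0.033 over edgeR fits without single libraries. That of Ptger4 was 0.012 (DESeq2 0.0065) without KO2, with a range of -0.12 to 0.012. Adora2b became 0.10 (DESeq2 0.10) without WT3 (range -1.17 to 0.10), Pde2a -0.016 (DESeq2 -0.031) without WT1 (range -0.016 to 0.29) and Prkacb -0.013 (DESeq2 -0.012) without KO3 (range -0.013 to 0.15). Without WT3, Adcy6 became 0.0026 (range -2.76 to 0.0026), Prkar2b 0.015 (DESeq2 0.010, range -2.60 to 0.015) and Pkig 0.059 (DESeq2 0.056, range -1.64 to 0.059), and without KO2, Crebbp became 0.0095 (DESeq2 0.0045, range -0.32 to 0.0095) and Ep300 0.062 (DESeq2 0.057, range -0.30 to 0.062). The cause was not tested. The other 8 members kept their direction in each alternative. The members had 819 counts or more in each library, and Adora2b had 133 in all 6 together.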
